A study of Homo sapiens with 16 samples.

Results

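The comparison described here set 2 arrays of LM24175 cells carrying a RECK construct against 2 arrays of the same cells carrying an empty vector, abbreviated EV. These 4 arrays were chosen by their sample titles and are 4 of the 16 arrays of the series, which holds 8 groups of 2 arrays. LM24175 is an established human breast cancer line derived from MDA-MB-231 by selection for growth in the lung of mice. Per the series design, the cells had been stably infected with a construct that expresses RECK constitutively or with the vector alone. No source used here gives the promoter of the construct, how many clones or pools stand behind a group, or whether each array had a culture of its own. The p-values therefore cover the spread between arrays alone, and that spread may be technical. The title of the series places RECK upstream of STAT3 and of blood vessel growth in metastasis, and the comparison asks which transcripts differ when the construct is present. All values are log2 levels of total RNA on Affymetrix U133 2.0 arrays, and 11963 genes were tested.

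RECK is a glycoprotein held in the cell membrane by a lipid anchor. It is known as an inhibitor of several matrix metalloproteinases, the enzymes that cut collagen and other parts of the extracellular matrix, and as a partner of the WNT7 ligands in vessel formation. Its transcript is low in many invasive tumours, and forced expression has been used to reduce their invasion. STAT3 is a transcription factor that IL-6 family cytokines activate through the shared receptor chain IL6ST, and VEGFA is among the angiogenic genes it is known to control.

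The first of the 2 RECK arrays stood apart from the second. Over all genes, the EV arrays correlated with each other at 0.9981 and the RECK arrays at 0.9951, while each EV array correlated with the second RECK array at 0.9946 to 0.9950 and with the first at 0.9929 to 0.9931. The difference between the 2 RECK arrays had an SD of 0.272 log2 units over genes, against 0.156 between the EV arrays. In 72 genes the RECK arrays differed by over 1 log2 unit, and in 65 of these the first array was the lower one, whereas 2 genes differed that much between the EV arrays. The 3-prime to 5-prime differences of the GAPDH control probe sets, a sign of RNA quality, ran from 0.20 to 0.26 log2 units on the 4 arrays, and those of ACTB from 0.88 to 0.98. Results are therefore given with and without the first RECK array, and the part of this array in each of them was not tested otherwise.

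Genes typical of the line were high on all 4 arrays. Averaged over 11 measured genes typical of MDA-MB-231 cells, such as VIM, CD44 and CAV1, the level ran from 12.05 to 12.08. For 15 luminal and receptor markers the mean level was 7.33 and 7.33 on the EV arrays and 7.05 and 7.33 on the RECK arrays. Of these 15, 11 were above the lower quartile of all probe set values on all 4 arrays and 3 were under it. The leukocyte gene PTPRC and the endothelial gene CDH5 were under the lower quartile on all 4 arrays. Of 18 leukocyte markers 9 were under it on all 4 arrays and 7 above it, and of 15 endothelial markers 8 and 5. Of 18 leukocyte markers 0 passed the limma test described below, with 1 at an unadjusted p under 0.05 (19% of all genes were under it), and their mean level ran from 4.62 to 4.66. Of 15 endothelial markers 1 was lower (6.67%, beside 3.27% of all genes), and the mean level ran from 4.54 to 4.64. In RNA from whole cultures, fewer cells of a type and less RNA per cell cannot be told apart.

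RECK itself was not higher with the construct. Its brightest probe set, 205407_at, read 7.96 and 8.04 on the EV arrays and 7.39 and 7.76 on the RECK arrays. Both RECK arrays lay below both EV arrays, and the difference of -0.42 ± 0.16 log2 units (SE) did not pass (limma, adjusted p = 0.154). The other two probe sets differed by 0.05 and -0.02. No source used here gives the sequence of the construct, so it is not known whether these probe sets can read its transcript, and the arrays are called RECK arrays from their label alone. Among 10 measured genes of RECK and its known partners, which include WNT7A, WNT7B and the protease ADAM10, 0 passed in limma and 2 had an unadjusted p under 0.05, near the 19% of all genes.

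Of 11963 genes, 802 passed an adjusted p under 0.05, which is 6.7% of all genes tested. Of these, 411 were higher with the construct (3.44%) and 391 were lower (3.27%). A fold of at least 1.5 was reached by 343 of them, and 90 changed at least 2-fold, 44 upward and 46 downward. In all 802 the 2 RECK arrays lay on the same side of both EV arrays, but so they did in 47.8% of all genes. In 513 of the 802 the first RECK array lay further from the EV mean than the second. Without the first RECK array 447 genes passed, 253 higher (2.11%) and 194 lower (1.62%), and 372 of them were among the 802. Without the first EV array 276 passed and without the second 290. A core of 211 genes (1.76%), 129 higher and 82 lower, passed with all 4 arrays and again with each of the 4 left out in turn.

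**Figure D1:**
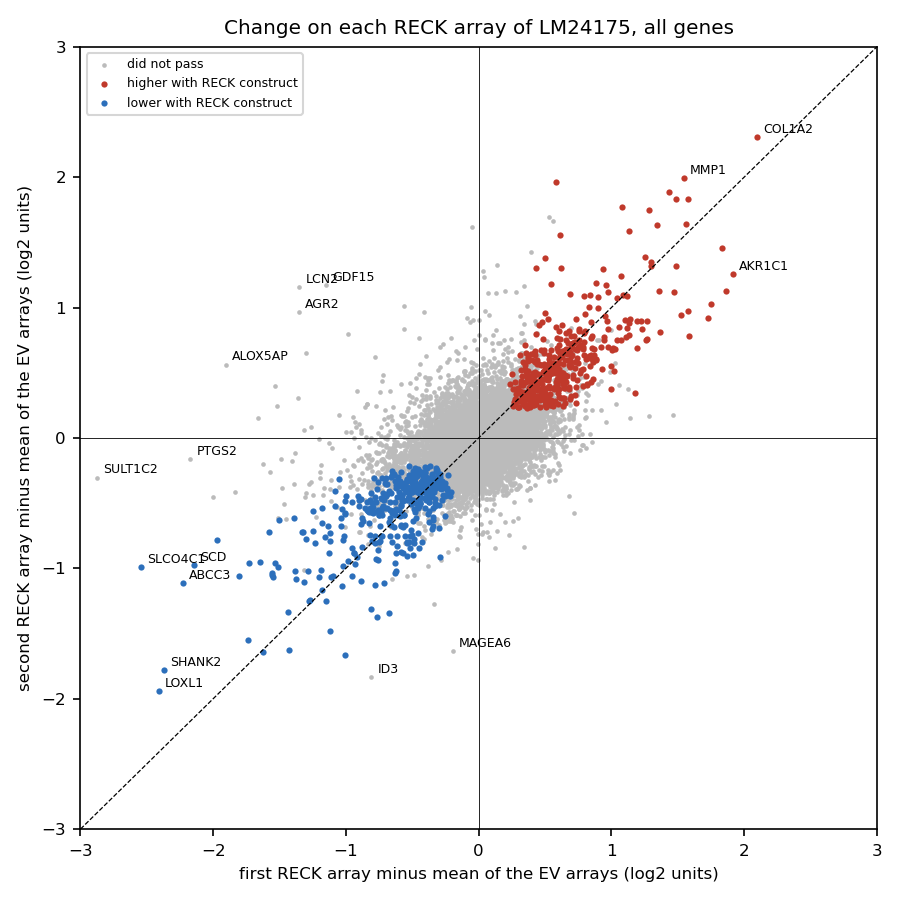
Change of every gene on each RECK array of LM24175, as the log2 level minus the mean of the EV arrays, with the first RECK array across and the second upward. Red and blue points are the 411 higher and 391 lower genes, the dashed line marks equal change, and a wing of grey points at the left holds genes low on the first RECK array only, such as LCN2 and GDF15.

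The metalloproteinase transcripts that moved with the construct rose. MMP1, the interstitial collagenase, and MMP3, stromelysin-1, which cleaves proteoglycans and activates other proenzymes, were both about 3-fold higher. MMP1 read 11.75 and 11.77 on the EV arrays and 13.31 and 13.75 on the RECK arrays. The arrays of the 2 groups were far apart for it, and the rise of 1.77 ± 0.14 log2 units (SE) was a 3.41-fold change (limma, adjusted p = 9.87e-05). MMP3 was at 6.70 and 6.86 with the vector and at 8.35 and 8.42 with the construct, a rise of 1.61 ± 0.27 (adjusted p = 0.00435). Both RECK arrays agreed closely on MMP3. Without the first RECK array, MMP1 rose by 1.99 (adjusted p = 0.000152) and MMP3 by 1.64 (adjusted p = 0.0295). Each gene has 1 probe set, and each passed with any 1 of the 4 arrays left out.

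These were 2 of the 9 measured members of the collagenase and stromelysin gene cluster (22.2%, beside 3.44% of all genes that rose). The median difference of the cluster was 0.03 against 0.0013 over all genes. Of the 9, 6 were under the lower quartile of all probe sets on all 4 arrays. Among 15 other metalloproteinases and tissue inhibitors (TIMPs), 1 rose (6.67%, beside 3.44% of all genes) and 0 fell. That gene was MMP9, the gelatinase that degrades basement membrane collagen and a known target of RECK protein. It read 6.38 and 6.55 with the vector and 7.55 and 7.57 with the construct. The rise of 1.09 ± 0.23 passed with all arrays (adjusted p = 0.0149) but with none of the 4 left out (adjusted p from 0.0533 to 0.122).

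The other gelatinase, MMP2, did not pass. It read 8.22 and 8.36 with the vector and 7.55 and 8.31 with the construct, so that only the first RECK array was low. MMP14, the membrane-bound activator of pro-MMP2, read 9.45 and 9.41 against 9.68 and 9.92, above the vector on both arrays (difference 0.37, adjusted p = 0.115). TIMP1, a secreted inhibitor, was at 12.39 and 12.42 with the vector and at 12.71 and 13.33 with the construct (adjusted p = 0.188). TIMP3, the matrix-bound inhibitor, was at 11.71 and 11.73 against 10.76 and 11.14 (adjusted p = 0.061). For both inhibitors the arrays of the groups did not overlap, and the RECK arrays lay apart from each other. With the first RECK array left out, the second stood alone, at 13.33 for TIMP1, 11.14 for TIMP3 and 9.92 for MMP14. A fit without the first takes its spread from other groups and cannot weigh the gap between the RECK arrays.

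Among the plasminogen activators, which start another proteolytic cascade at the cell surface, PLAT was lower and PLAU did not pass. PLAT, the tissue-type activator, read 10.61 and 10.70 against 9.15 and 10.02, a fall of 1.07 ± 0.24 on the log2 scale (adjusted p = 0.0197). The first RECK array carried most of it, and the call was lost without that array or without either EV array (adjusted p up to 0.139). PLAU, urokinase, read 12.26 and 12.24 with the vector and 11.54 and 12.26 with the construct, so that the second RECK array was level with the vector. SERPINE2, an inhibitor of these enzymes, rose from 11.59 and 11.63 to 11.99 and 12.07 (adjusted p = 0.034), a call that each left-out array ended (adjusted p up to 0.182). ADAMTS1, a secreted protease that cleaves versican, rose from 6.63 and 6.53 to 7.85 and 7.34. Its 2.02-fold rise (adjusted p = 0.00178) passed with any 1 array left out.

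A few collagen chains rose and a few enzymes that modify or cross-link collagen fell, while most members of both lists did not pass. Of 26 measured collagen chains, 4 were higher (15.4%), 1 was lower (3.85%) and 21 did not pass, beside 3.44% and 3.27% of all genes. The median difference was 0.17. COL1A2, one of the chains of type I collagen, was the largest rise of all genes. It read 4.80 and 5.25 on the EV arrays and 7.12 and 7.33 on the RECK arrays, and all 4 values fell into clearly separate pairs. The rise was 2.20 ± 0.29 log2 units, or 4.61-fold (adjusted p = 0.00106), and 2.31 without the first RECK array (adjusted p = 0.00748). Its dimmer probe set, 202404_s_at, went from 3.57 and 3.71 to 6.67 and 6.83, a rise of 3.11 log2 units. The EV values of that probe set lay under the lower quartile of all probe sets on the EV arrays (4.65 and 4.61), so the size of this rise is uncertain.

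COL3A1, the chain of type III collagen, read 3.90 and 3.93 against 5.20 and 5.66, a rise of 1.52 ± 0.19 (adjusted p = 0.000764). Of its 4 probe sets, 3 were higher and 215077_at was not (difference -0.09). COL6A3, of the microfibrillar type VI collagen, read 9.05 and 8.95 against 10.13 and 10.59 (rise 1.36 ± 0.18, adjusted p = 0.000972). COL15A1, a basement membrane collagen whose end fragment inhibits vessel growth, read 4.59 and 4.65 against 5.88 and 6.01 (rise 1.32 ± 0.10, adjusted p = 9.87e-05). In each of these chains the RECK arrays lay over 1 log2 unit above the vector, the second array more so, and each passed with any 1 array left out.

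Not all chains followed. COL1A1, which pairs with COL1A2 in type I collagen, read 7.62 and 7.67 with the vector and 7.38 and 7.54 with the construct (difference -0.18, adjusted p = 0.811). COL6A2 read 8.65 and 8.44 against 7.49 and 8.23, low mainly on the first RECK array. Its fall of 0.68 on the log2 scale (adjusted p = 0.0478) lost the call without that array or without either EV array (adjusted p up to 0.27). Without the first RECK array 5 collagen chains were higher and 0 lower.

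COL1A2, COL3A1 and COL6A3 are also 3 of 16 genes fixed as fibroblast markers. The mean level of that list was 5.23 and 5.24 on the EV arrays and 5.43 and 5.72 on the RECK arrays. Of the other listed genes none passed as higher with all arrays, while LUM did without the first RECK array (adjusted p = 0.0411). Of the 16, 5 were under the lower quartile on all 4 arrays. FAP read 4.35 and 4.44 against 4.44 and 4.35, PDGFRA and POSTN were among those 5, and ACTA2 was lower (difference -0.80, adjusted p = 0.036, lost without the first RECK array or either EV array, with adjusted p up to 0.258). LUM read 5.24 and 5.11 against 5.70 and 6.87, high mainly on the second RECK array (adjusted p = 0.126 with all arrays). The part of other cells in the collagen values was not tested.

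LOXL1, a lysyl oxidase-like enzyme that cross-links elastin and collagen, showed the largest fall of all genes. The EV arrays read 6.68 and 6.57 and the RECK arrays 4.21 and 4.68, a 4.52-fold lower level (difference -2.17 ± 0.32, adjusted p = 0.00217). Both RECK arrays had it near the lower quartile of all probe sets. Its relative LOX, the founding lysyl oxidase, read 10.91 and 10.99 against 9.39 and 9.92 (difference -1.29 ± 0.14, adjusted p = 0.000355), and the other two LOX probe sets fell as well. Without the first RECK array the differences were -1.94 for LOXL1 (adjusted p = 0.0255) and -1.03 for LOX (adjusted p = 0.00102).

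Of 20 measured enzymes and chaperones of collagen processing, 5 fell, 0 rose and 15 did not pass, and the median difference was -0.12. Besides LOXL1 and LOX the genes that fell were 3 hydroxylases of proline or lysine residues. P3H3 read 5.96 and 6.09 against 5.26 and 4.65 (difference -1.07, adjusted p = 0.00178), lower still on the second RECK array. P4HA2 read 10.61 and 10.63 against 9.97 and 10.05 (difference -0.61, adjusted p = 0.000636). PLOD2 read 11.74 and 11.81 against 10.90 and 11.16 (difference -0.74, adjusted p = 0.00647). All but PLOD2 passed with any 1 array left out, and PLOD2 lost the call without the second EV array or the first RECK array (adjusted p up to 0.0662). HSPG2, the basement membrane proteoglycan perlecan, was also lower, at 7.46 and 7.47 against 6.58 and 6.63 (difference -0.86, adjusted p = 0.000432). Of 51 matrix glycoproteins and proteoglycans 3 fell and 0 rose, but without the first RECK array 1 fell and 2 rose. Over all genes and all arrays 3.27% fell and 3.44% rose. Of 26 integrin and laminin chains 0 passed in limma, with 4 at an unadjusted p under 0.05 (19% of all genes).

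**Figure D2:**
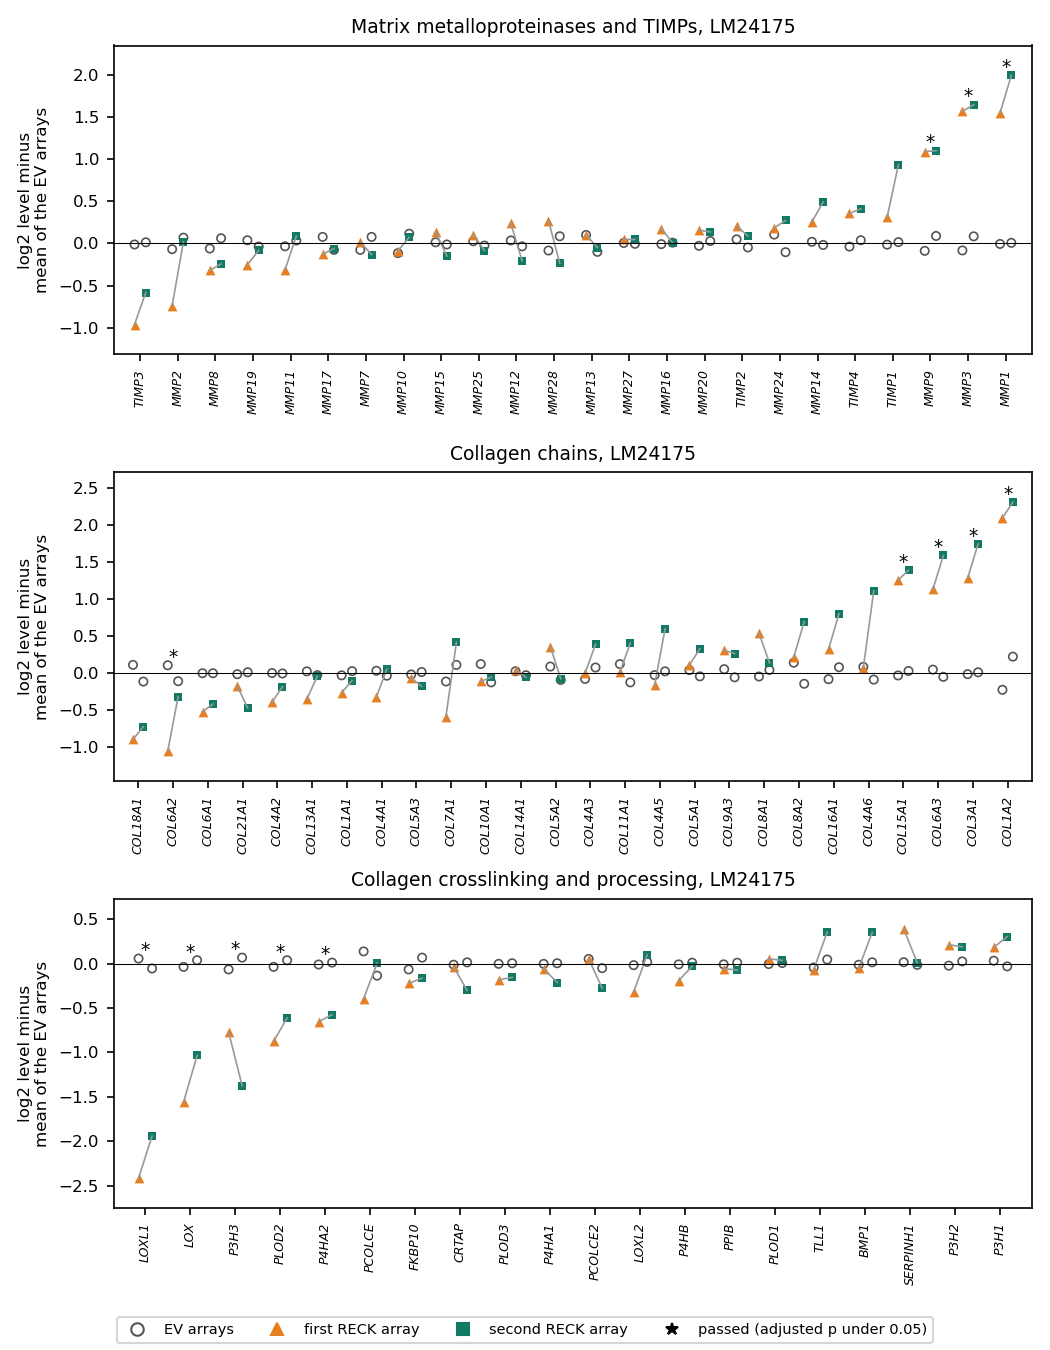
Log2 level minus the mean of the EV arrays for 24 metalloproteinases and TIMPs, 26 collagen chains and 20 collagen-processing genes in LM24175, with open circles for EV arrays, triangles for the first and squares for the second RECK array, and a star where the gene passed. MMP1, MMP3 and 4 collagen chains stand over 1 log2 unit above the vector on both RECK arrays, and LOXL1 and LOX stand over 1 below.

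Among genes of cholesterol and fatty acid synthesis, those that passed were mostly lower. These pathways are controlled by the SREBP transcription factors, which are set free from the endoplasmic reticulum when sterols are scarce. Of 40 measured genes, 13 were lower, 2 higher and 25 did not pass, the median difference was -0.30, and 31 lay below the EV mean on both RECK arrays, as did 32.9% of all genes. Without the first RECK array 9 were lower and 2 higher, with a median of -0.27, and without the first or the second EV array 8 were lower. In a fit of the 4 LM24175 arrays alone, which called 153 genes in all, 3 were lower and 0 higher.

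Of 19 cholesterol genes, 6 fell (31.6%) and 2 rose (10.5%), beside 3.27% and 3.44% of all genes. HMGCS1, which makes the HMG-CoA that statin-sensitive reductase acts on, read 8.51 and 8.76 with the vector and 7.85 and 7.83 with the construct (difference -0.79 ± 0.12, adjusted p = 0.00285). DHCR7, the last enzyme of one branch to cholesterol, read 9.45 and 9.35 against 8.65 and 8.60 (difference -0.77 ± 0.09, adjusted p = 0.000465). MSMO1, which removes methyl groups from the sterol ring, read 12.03 and 11.93 against 11.16 and 11.41 (difference -0.70 ± 0.09, adjusted p = 0.000972). For these 3 genes the RECK arrays were within 0.26 log2 units of each other and lay apart from the vector. FDPS, which makes farnesyl diphosphate, read 12.28 and 12.43 against 11.63 and 11.82 (difference -0.63, adjusted p = 0.00119). LSS, which closes the sterol ring, fell by 0.55 on the log2 scale (adjusted p = 0.00117), and HSD17B7 by 0.32 (adjusted p = 0.0333). All of these except HSD17B7 passed with any 1 array left out, and HSD17B7 with none (adjusted p from 0.0619 to 0.282).

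Both genes that rose act in the same late steps. NSDHL, of the complex that demethylates sterols, read 8.37 and 8.47 against 9.11 and 8.97 (difference 0.62, adjusted p = 0.00247). EBP, a sterol isomerase, read 10.10 and 10.15 against 10.61 and 10.69 (difference 0.53, adjusted p = 0.00379). Both were above the vector on each RECK array and passed with any 1 array left out.

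Of 21 fatty acid genes, 7 fell (33.3%, beside 3.27% of all genes) and 0 rose. SCD, which puts the first double bond into saturated fatty acids, read 12.11 and 12.13 on the EV arrays and 9.97 and 11.15 on the RECK arrays. Both RECK arrays were low, the first by over 2 log2 units and the second by about 1. The difference was -1.56 ± 0.30 (adjusted p = 0.00915) and -0.97 without the first RECK array (adjusted p = 0.0414), and the call was lost without either EV array (adjusted p up to 0.0707). All 4 SCD probe sets were lower. FASN, the fatty acid synthase, showed no such gap between its arrays, at 8.67 and 8.70 against 7.59 and 7.63, a 2.11-fold lower level (difference -1.08 ± 0.08, adjusted p = 9.87e-05). A dim second FASN probe set, 217006_x_at, differed by -0.08.

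ACACA, the carboxylase that feeds FASN, read 9.56 and 9.66 against 8.77 and 9.05 (difference -0.70, adjusted p = 0.00379), and FADS3 read 9.07 and 9.01 against 8.33 and 8.57 (difference -0.59, adjusted p = 0.00351). Both passed with any 1 array left out, as FASN did. PNPLA3, a lipid droplet enzyme, read 6.72 and 6.69 against 5.70 and 6.12 (difference -0.79, adjusted p = 0.0103). PNPLA3, FADS2 (difference -0.52, adjusted p = 0.0377) and DGAT1 (difference -0.56, adjusted p = 0.0474) lost the call without the first RECK array or without either EV array, with adjusted p up to 0.0903, 0.255 and 0.273. The genes of the SREBP factors did not pass. SREBF1 read 8.42 and 8.37 against 7.12 and 8.04 (adjusted p = 0.169), and SREBF2 read 8.04 and 7.98 against 7.30 and 7.65 (adjusted p = 0.0674).

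**Figure D3:**
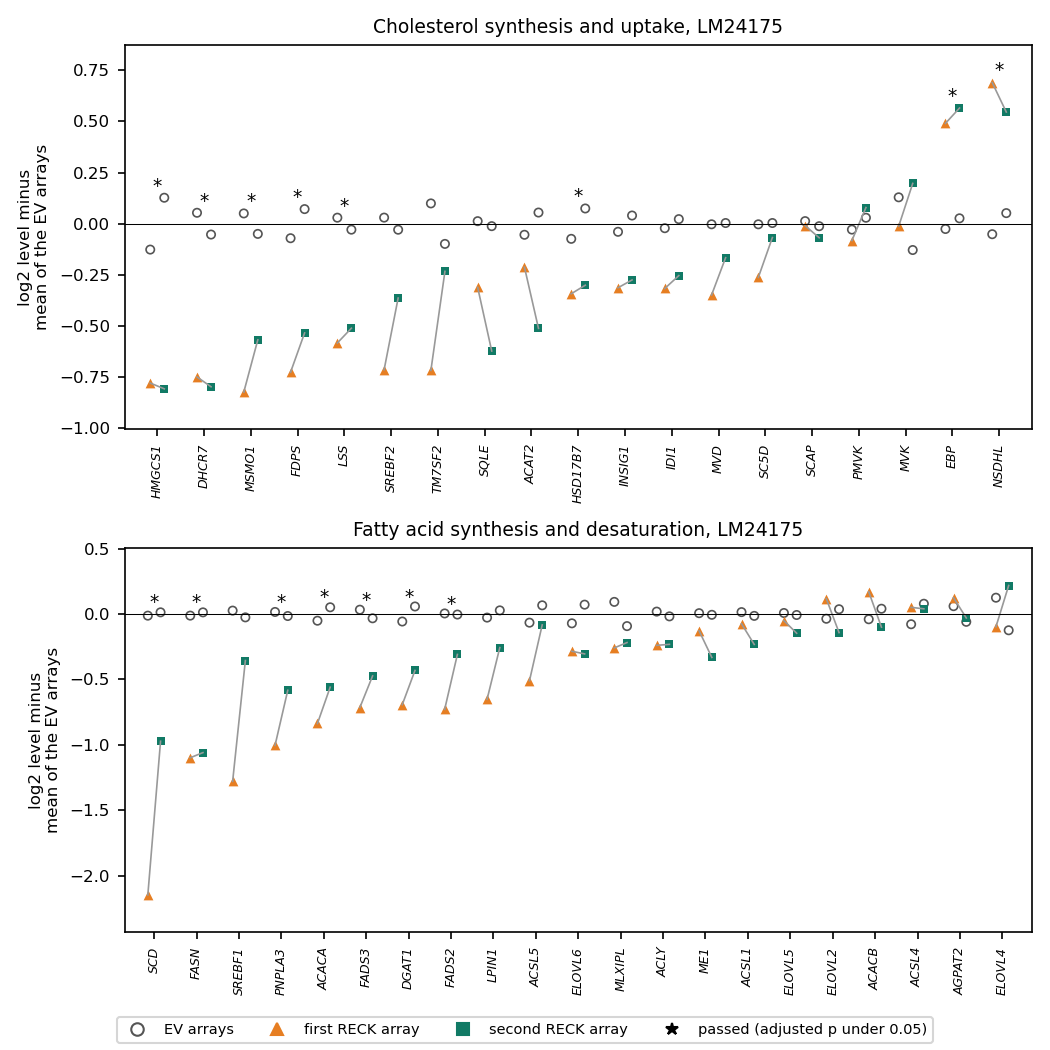
Log2 level minus the mean of the EV arrays for 19 cholesterol and 21 fatty acid genes in LM24175, with open circles for EV arrays, triangles for the first and squares for the second RECK array, and a star where the gene passed. Most genes lie below 0 on both RECK arrays, EBP and NSDHL lie above, and SCD and SREBF1 show wide gaps between the RECK arrays.

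To describe the genes that fell, the promoter windows that RefSeq gives for them in build GRCh38.p14 were read for the sterol element TCACNCCAC and for the CCAAT box, CCAAT, bound by NF-Y, which is known to act with SREBP. Each window runs from 250 bases before to 50 bases after a start site, both strands were searched, and neither motif contains the other. The 13 genes that fell gave windows for 10 genes, 15 windows in all. A CCAAT box was in 11 of the 15 and in at least 1 window of each of the 10 genes, whereas 34.6% of 35116 windows of all genes hold one. Among the measured genes of these lists that did not fall, 17 of 37 windows held one. The sterol element was in 0 of the 15 windows, in 2 of the 37 and in 1.13% of all windows. Windows of 3 genes that fell by 0.77 to 1.56 log2 units are shown 5′ to 3′ along the gene, with CCAAT or its reverse complement ATTGG in capitals.
HMGCS1 (chr5:43313363-43313662, minus strand): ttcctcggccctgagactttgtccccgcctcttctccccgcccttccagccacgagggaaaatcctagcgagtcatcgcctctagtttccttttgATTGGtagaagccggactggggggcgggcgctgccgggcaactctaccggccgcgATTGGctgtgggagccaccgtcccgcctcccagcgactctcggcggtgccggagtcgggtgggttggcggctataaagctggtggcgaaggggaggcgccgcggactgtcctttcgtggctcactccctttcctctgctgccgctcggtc
SCD (chr10:100346983-100347282, plus strand): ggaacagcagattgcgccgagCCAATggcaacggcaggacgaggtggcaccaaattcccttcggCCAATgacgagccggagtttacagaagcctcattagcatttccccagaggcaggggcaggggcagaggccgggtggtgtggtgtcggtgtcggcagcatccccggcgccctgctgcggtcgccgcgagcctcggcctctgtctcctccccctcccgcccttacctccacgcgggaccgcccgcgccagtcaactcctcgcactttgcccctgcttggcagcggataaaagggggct
DHCR7 (chr11:71448344-71448643, minus strand): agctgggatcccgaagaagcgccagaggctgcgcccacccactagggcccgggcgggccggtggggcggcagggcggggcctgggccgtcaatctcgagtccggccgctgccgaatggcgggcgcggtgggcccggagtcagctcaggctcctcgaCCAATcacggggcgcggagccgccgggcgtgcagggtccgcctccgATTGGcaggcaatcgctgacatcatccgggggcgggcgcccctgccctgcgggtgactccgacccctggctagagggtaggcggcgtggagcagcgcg
Each of these windows holds 2 boxes. The starts of the boxes, counted from the start site, were at -155 and -100 in HMGCS1, at -229 and -186 in SCD and at -94 and -48 in DHCR7. A second window of HMGCS1 and of DHCR7 held 0. These matches describe the letters of the windows and are not evidence of binding.

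Genes that take up and carry lipids were lower too where they passed, 2 of 26 measured (7.69%, beside 3.27% of all genes). FABP4, a fatty acid carrier of fat cells and macrophages, read 6.69 and 6.86 against 5.03 and 5.22, with the RECK arrays close together (difference -1.65 ± 0.15, adjusted p = 0.000186). LPL, lipoprotein lipase, read 5.50 and 5.41 against 4.34 and 4.38 (difference -1.09 ± 0.18, adjusted p = 0.00439). Both passed with any 1 array left out, and they were the 2 of 26 genes of lipid binding and efflux that passed. LIPG, endothelial lipase, read 7.31 and 7.25 against 5.31 and 6.50, a fall of 1.38 on the log2 scale (adjusted p = 0.0204) that was larger on the first RECK array. It lost the call without that array or without either EV array (adjusted p up to 0.124).

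The aldo-keto reductases AKR1C1, AKR1C2 and AKR1C3, which reduce steroids, prostaglandins and aldehydes, rose together. AKR1C1 read 10.72 and 10.67 on the EV arrays and 12.61 and 11.95 on the RECK arrays, a 3-fold rise (difference 1.59 ± 0.18, adjusted p = 0.000414). AKR1C2 read 9.74 and 10.05 against 11.64 and 10.93 (difference 1.39 ± 0.18, adjusted p = 0.000837), and AKR1C3 read 11.12 and 11.11 against 12.70 and 11.90 (difference 1.18 ± 0.18, adjusted p = 0.00244). In all 3 the first RECK array was the higher, and each passed with any 1 array left out. The probe sets behind AKR1C1 and AKR1C2 are of a type that can cross-hybridise between near-identical transcripts, so these genes cannot be separated by them. The dim AKR1C1 probe set 217626_at differed by 0.14 without passing (adjusted p = 0.671).

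These enzymes are known targets of NRF2, the regulator of the oxidative stress response. Of 29 measured NRF2 targets and reductases, 4 were higher (13.8%) and 1 lower (3.45%), beside 3.44% and 3.27% of all genes. The median was 0.09, and -0.0093 without the first RECK array. HMOX1, heme oxygenase, read 8.03 and 8.12 against 8.93 and 8.51 (difference 0.64, adjusted p = 0.0196). ABCC3, an efflux pump, went the other way, from 9.46 and 9.62 to 7.32 and 8.43 (difference -1.67 ± 0.41, adjusted p = 0.0322). HMOX1 and ABCC3 lost the call without the first RECK array or without either EV array, with adjusted p up to 0.147 and 0.234. Over the whole list the first RECK array was above the second by a median of 0.23.

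Some genes of MHC class II, which presents antigen to helper T cells, were lower. Of 18 measured genes of the pathway 6 fell (33.3%), 1 rose (5.56%) and 11 did not pass, beside 3.27% and 3.44% of all genes. The median was -0.20, and -0.08 without the first RECK array. HLA-DPA1 read 10.25 and 10.34 against 8.67 and 8.65, a 3.11-fold lower level on which the RECK arrays agreed (difference -1.64 ± 0.25, adjusted p = 0.00238). HLA-DRB1 read 9.34 and 9.37 against 8.08 and 8.11 (difference -1.26 ± 0.17, adjusted p = 0.00113), and HLA-DRA read 10.06 and 10.15 against 8.60 and 9.12 (difference -1.25 ± 0.17, adjusted p = 0.00129). These 3 chains passed with any 1 array left out. The HLA-DRB1 probe set can cross-hybridise with other DRB genes.

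HLA-DPB1 read 8.48 and 8.67 against 7.29 and 7.55 (difference -1.15, adjusted p = 0.0206). HLA-DMA, of the pair that helps load peptides, read 8.80 and 8.85 against 7.65 and 8.17 (difference -0.92, adjusted p = 0.0458), and HLA-DMB fell by 0.63 on the log2 scale (adjusted p = 0.0447). The gene that rose was RFXANK, part of the factor that binds class II promoters (difference 0.38, adjusted p = 0.0247). These 4 lost the call without the first RECK array or without either EV array, with adjusted p up to 0.159, 0.29, 0.292 and 0.146. CIITA, the coactivator that switches the pathway on, read 5.29 and 5.14 against 5.24 and 5.11, with overlapping arrays.

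Class II promoters are known for a Y box, and its form CTGATTGG was searched on both strands in the same RefSeq windows; it contains a CCAAT box on the other strand. It was found in 3.97% of all windows, in 2 of 6 windows of the 5 fallen class II genes that have one, and in 3 of 13 windows of the genes that did not fall. The windows with a match are shown with it in capitals, as the fallen genes in which this form was found.
HLA-DRB1 (chr6:32589799-32590098, minus strand): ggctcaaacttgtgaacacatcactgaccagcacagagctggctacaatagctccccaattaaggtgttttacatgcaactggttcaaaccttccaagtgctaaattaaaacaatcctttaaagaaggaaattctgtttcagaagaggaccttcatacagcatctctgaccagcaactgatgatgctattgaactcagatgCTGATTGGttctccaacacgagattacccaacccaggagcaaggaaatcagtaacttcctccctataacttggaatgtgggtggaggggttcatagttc
HLA-DMA (chr6:32953048-32953347, minus strand): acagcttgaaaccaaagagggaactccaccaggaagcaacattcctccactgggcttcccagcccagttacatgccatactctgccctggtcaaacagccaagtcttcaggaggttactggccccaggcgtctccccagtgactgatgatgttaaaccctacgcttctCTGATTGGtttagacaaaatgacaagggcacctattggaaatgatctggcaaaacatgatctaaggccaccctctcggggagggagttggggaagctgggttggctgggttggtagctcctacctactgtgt
The match starts at -49 in HLA-DRB1 and at -82 in HLA-DMA. These sequences are the reference of the build and not those of the cell line.

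Complement genes fell where they passed, 4 of 23 measured (17.4%, beside 3.27% of all genes). C4BPB, a chain of the C4b-binding protein that restrains complement, read 7.05 and 6.94 against 5.57 and 5.37 (difference -1.53 ± 0.22, adjusted p = 0.00167). CD55, which protects the cell's own membrane, read 11.75 and 11.76 against 11.001 and 11.20 (difference -0.65, adjusted p = 0.00117). Both passed with any 1 array left out. The membrane cofactor CD46 (difference -0.53, adjusted p = 0.0333) and the protease C1S (difference -0.79, adjusted p = 0.0465) lost the call without the first RECK array or without either EV array, with adjusted p up to 0.23 and 0.287.

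Transcripts of the STAT3 axis named in the title of the series showed few changes on these arrays. The arrays measure transcripts, and the activity of the STAT3 protein was not tested. STAT3 read 10.13 and 10.27 with the vector and 10.07 and 10.10 with the construct (difference -0.11, 95% interval -0.31 to 0.09, adjusted p = 0.615). IL6ST read 12.98 and 12.97 against 12.79 and 12.92 (adjusted p = 0.509). IL6 read 10.62 and 10.72 against 10.15 and 10.95, with the RECK arrays on either side of the vector (difference -0.12, interval -0.77 to 0.53). VEGFA read 12.11 and 12.24 against 11.25 and 12.30 (difference -0.40, interval -1.02 to 0.22), and CXCL8, the neutrophil chemokine and angiogenic factor, 11.91 and 11.97 against 11.25 and 12.05 (difference -0.29). In VEGFA, CXCL8 and IL6 the first RECK array lay below both EV arrays and the second above both. Of 10 genes of the STAT3 and invasion question followed whatever their values, 2 passed, namely MMP1 and MMP9, beside 6.7% of all genes. The call of MMP9 was lost whichever array of the comparison was left out, while that of MMP1 held.

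Of 28 measured genes of the IL-6 family, STAT3 and its SOCS feedback inhibitors, 2 fell (7.14%, beside 3.27% of all genes) and 0 rose. IL11, an IL-6 family cytokine that also signals through IL6ST, read 8.74 and 8.94 against 7.29 and 7.79, a 2.46-fold lower level. Both RECK arrays were well below both EV arrays, and the difference of -1.30 ± 0.15 (adjusted p = 0.000432) passed with any 1 array left out. Its receptor IL11RA read 6.75 and 6.95 against 6.07 and 6.40 (difference -0.62, adjusted p = 0.0251), lost without the first RECK array or either EV array (adjusted p up to 0.213). Of 39 STAT3 target genes 1 rose (2.56%, beside 3.44% of all genes) and 0 fell, and 6 had an unadjusted p under 0.05, against 19% of all genes.

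Of 51 measured angiogenic factors, 3 rose and 3 fell, 5.88% each way beside 3.44% and 3.27% of all genes, and the median was -0.01. ENPP2, which encodes autotaxin, the enzyme that makes lysophosphatidic acid, rose from 5.85 and 5.71 to 7.22 and 7.67 (difference 1.66 ± 0.13, adjusted p = 9.87e-05). MDK, the heparin-binding growth factor midkine, fell from 8.13 and 8.30 to 7.01 and 7.15 (difference -1.13 ± 0.13, adjusted p = 0.000414). Both passed with any 1 array left out, and the arrays of each group lay close together. EGF read 6.74 and 6.79 against 6.32 and 5.92 (difference -0.65, adjusted p = 0.0139), FGF1 7.48 and 7.55 against 6.99 and 7.23 (difference -0.40, adjusted p = 0.0239), and HBEGF 9.95 and 9.90 against 10.24 and 10.29 (difference 0.34, adjusted p = 0.0387). EGF lost the call without the second RECK array, FGF1 without the first and HBEGF without either, and all 3 without either EV array (adjusted p up to 0.11, 0.181 and 0.24). Of 19 angiogenesis inhibitors 3 rose (15.8%) and 1 fell (5.26%), beside 3.44% and 3.27% of all genes. COL15A1 and ADAMTS1 were among those that rose. CXCL14 fell (4.89 and 4.63 against 3.74 and 3.97, adjusted p = 0.00948 in limma), a call lost without the first EV or the first RECK array.

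BMP2, a bone morphogenetic protein, rose from 6.9965 and 7.04 to 7.90 and 8.21, a 2.05-fold change (adjusted p = 0.00345). FST, which encodes follistatin, an antagonist of activins and BMPs, fell from 10.46 and 10.46 to 9.44 and 9.71 (difference -0.88 ± 0.10, adjusted p = 0.000526). Both passed with any 1 array left out. ID2, a target of BMP signals, read 7.14 and 7.27 against 6.91 and 6.29, low mainly on the second RECK array (difference -0.60, adjusted p = 0.046, lost without that array or either EV array, up to 0.269). These were the 3 of 41 TGF-beta and BMP genes that passed with all arrays. Of the 41, 2.44% were higher and 4.88% lower, beside 3.44% and 3.27% of all genes. The median was -0.02, and 0.03 without the first RECK array.

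Of 12 measured genes of metallothioneins, small proteins that bind zinc and copper, and of zinc handling, 4 fell with all arrays. These were MT1E, MT1F, MT1G and the zinc exporter SLC30A1, 33.3% of the 12 beside 3.27% of all genes. Below the EV mean on both RECK arrays lay 11, against 32.9% of all genes, with a median of -0.25, but 0 passed in limma without the first RECK array, where 6 had an unadjusted p under 0.05. MT1E read 13.22 and 13.28 against 12.53 and 12.83 (difference -0.57, adjusted p = 0.00684), and MT1F 13.10 and 13.17 against 12.60 and 12.80 (difference -0.43, adjusted p = 0.00703). The first RECK array was the lower in both, and without it the adjusted p was 0.0529 and 0.0527. Both also lost the call without the second EV array (adjusted p up to 0.0707 and 0.0828). Members of this family share much of their sequence, and their probe sets may read one another's transcripts.

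Among 42 hypoxia and glycolysis genes 4 rose and 6 fell (9.52% and 14.3%, beside 3.44% and 3.27% of all genes), with a median of -0.07, and 1 rise and 3 falls passed with any 1 array left out. CA12, a carbonic anhydrase of the cell surface, fell from 10.94 and 10.87 to 9.72 and 9.89 (difference -1.10 ± 0.11, adjusted p = 0.000294). PGK1, a glycolytic kinase, rose from 12.71 and 12.77 to 13.25 and 13.19 (difference 0.48, adjusted p = 0.00284). Both passed with any 1 array left out. ALDOC, an aldolase, read 7.09 and 6.97 against 5.85 and 6.50 (difference -0.86, adjusted p = 0.00647, lost without the first EV array, 0.0702). NDRG1, a hypoxia and stress response gene, rose from 9.93 and 10.03 to 10.57 and 10.75 (adjusted p = 0.0111, lost without the second RECK array or either EV array, up to 0.0975).

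Few growth genes passed. Of 44 mitosis genes 1 rose (2.27%, beside 3.44% of all genes), and of 45 replication genes 1 fell (2.22%, beside 3.27%). Of 31 immediate early genes 0 passed in limma, with 4 at an unadjusted p under 0.05 (19% of all genes). The replication genes had 11 under that p, and 23 lay below the EV mean on both RECK arrays (32.9% of all genes). Their median was -0.09, and -0.17 without the first RECK array. For mitosis genes the medians were 0.01 and -0.15. The 47 interferon-stimulated genes gave 2 higher and 3 lower, close to the share among all genes. Among them BST2, the tetherin that holds budding viruses, rose from 8.90 and 9.04 to 9.77 and 9.92 (difference 0.88 ± 0.14, adjusted p = 0.00311) and passed with any 1 array left out, while OAS1, a sensor of double-stranded RNA, fell from 5.94 and 6.09 to 5.23 and 4.89 (adjusted p = 0.0168, lost without the second RECK array or either EV array, up to 0.139). Of 24 genes linked to lung metastasis of breast cancer, 1 rose (4.17%) and 4 fell (16.7%), beside 3.44% and 3.27% of all genes. Of these 24, 2 were higher and 2 lower without the first RECK array, and 1 in each direction passed with any 1 array left out. The one that rose with all arrays was MMP1.

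Several of the largest rises belong to none of these groups. TCN1, haptocorrin, a carrier of vitamin B12, read 4.72 and 4.31 against 6.09 and 6.35 (difference 1.70 ± 0.17, adjusted p = 0.000294). TENM1, a teneurin of the cell surface, read 4.95 and 4.74 against 6.33 and 6.68 (difference 1.66 ± 0.13, adjusted p = 9.87e-05), and HMGN5, a nucleosome-binding protein, 7.03 and 7.04 against 8.87 and 8.49 (difference 1.65 ± 0.25, adjusted p = 0.00248). All RECK arrays were well above the vector for these 3. CST6, the cysteine protease inhibitor cystatin M, read 6.22 and 6.17 against 7.54 and 7.83 (difference 1.49). LYPD1 read 5.61 and 5.44 against 7.40 and 6.66, ADGRF5, an adhesion receptor, 7.87 and 8.06 against 9.05 and 9.74, and PGCKA1 5.004 and 5.04 against 6.51 and 6.35. The 15 largest rises were chosen among passing genes by their size on these same arrays. That they still passed with an array left out follows largely from the choice.

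The largest falls were less even between the RECK arrays. SHANK2, a scaffold protein of synapses and epithelia, read 7.15 and 7.16 against 4.78 and 5.37 (difference -2.08 ± 0.23, adjusted p = 0.000414). Its probe set 213307_at fell as well, while the dim 215829_at and 215830_at differed by -0.06 and 0.09. SLCO4C1, an organic anion transporter, read 6.78 and 6.76 against 4.23 and 5.78, so that its fall of 1.77 on the log2 scale (adjusted p = 0.0164) came mainly from the first RECK array. Without that array the fall was 0.99 and did not pass (adjusted p = 0.0654), and the call was also lost without either EV array (adjusted p up to 0.103). TNFSF4, the ligand of the T cell receptor OX40, read 9.50 and 9.42 against 7.91 and 8.39 (difference -1.31 ± 0.13, adjusted p = 0.000311).

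AUTS2, a gene of neural development, read 5.29 and 5.17 against 3.80 and 3.90 (difference -1.38 ± 0.13, adjusted p = 0.000208). PCDH7, a protocadherin, read 8.55 and 8.48 against 7.51 and 6.85, and AK5, an adenylate kinase, 7.39 and 7.44 against 5.69 and 6.46. SNX10, a sorting nexin, read 7.42 and 7.59 against 6.38 and 6.03 (adjusted p = 0.0115, lost without the second RECK array or either EV array, up to 0.103). A probe set annotated to the microRNA locus MIR3916, which does not measure the mature microRNA, read 5.77 and 6.26 against 4.21 and 4.95 (adjusted p = 0.00392, lost without the second EV array, 0.0528). Of the 15 largest falls, chosen in the same way, SLCO4C1, ABCC3 and LIPG lost the call without the first RECK array. SCD, SNX10 and MIR3916 lost it without some other array.

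**Figure D4:**
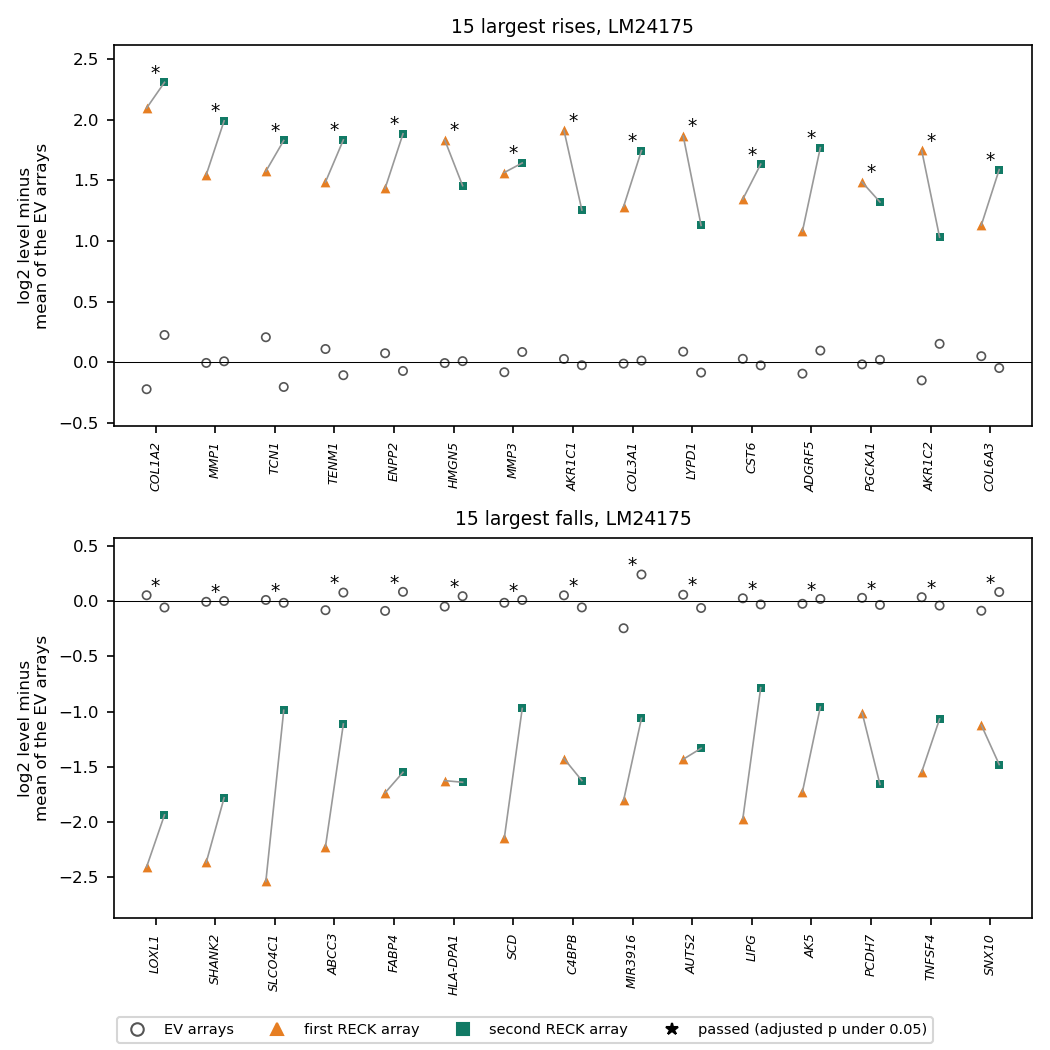
Log2 level minus the mean of the EV arrays for the 15 largest rises (top) and 15 largest falls (bottom) of LM24175, with open circles for EV arrays, triangles for the first and squares for the second RECK array, joined by a line. Only genes with separate arrays were eligible, so every RECK array lies clear of both EV arrays by selection. The gap between the RECK arrays is widest for SLCO4C1, SCD, LIPG and ABCC3.

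The genes in which the RECK arrays disagreed most were largely ones that the first array alone showed as low. LCN2, the iron-binding lipocalin, read 7.34 and 6.81 on the EV arrays, 5.73 on the first RECK array and 8.24 on the second. GDF15, a stress-induced cytokine, read 8.14 and 8.17, then 7.0041 and 9.32, and AGR2, a disulfide isomerase of secretory cells, 7.01 and 6.90, then 5.60 and 7.93. In these 3 the second RECK array was above the vector and the first below it. The mean of the group then lay near the vector (differences of -0.10, 0.01 and -0.19) and describes neither array. ALOX5AP, of leukotriene synthesis, BCL2A1, an inhibitor of apoptosis, and C3, the central complement protein, had the same shape, with gaps of -2.47, -1.95 and -1.93 (first minus second RECK array).

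SULT1C2, a sulfotransferase, and PTGS2, the inducible cyclooxygenase, were low mainly on the first RECK array, with the second slightly below both EV arrays. SULT1C2 read 7.13 and 7.04, then 4.20 and 6.78, and PTGS2 11.69 and 11.75, then 9.54 and 11.56. In the other direction, MAGEA6, a cancer-testis antigen, read 7.13 and 7.35, then 7.05 and 5.61, and ID3, a BMP target, 9.98 and 10.18, then 9.27 and 8.25. Both were lowest on the second RECK array. SOCS1, the feedback inhibitor of cytokine signals, read 5.90 and 6.04, then 7.43 and 6.15, and ANGPT1, a ligand that stabilises vessels, 6.07 and 6.13, then 7.38 and 6.26, high on the first array only. AKR1B10, GPR19, MAP3K1 and SLITRK5 had gaps of 1.30, 1.18, 1.12 and 0.98. A gap between the RECK arrays adds to the error of the test, so genes chosen for it were unlikely to pass. Of these 16 genes 0 passed with both RECK arrays, beside 6.7% of all genes. Of the 802 genes that did, 5 had a gap over 1 log2 unit.

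By list, the first RECK array was lower than the second by a median of 0.31 in ATF4 and unfolded protein response genes, 0.27 in mesenchymal genes and 0.25 in IL-1 and neutrophil chemokine genes. It was higher by 0.25 in mitosis genes. Over all genes the median gap was 0.015. The gap between the RECK arrays of LM24175 correlated with that between the EV arrays of MDA-MB-231 (first minus second) at 0.486 across 11963 genes, which are not independent replicates. PTGS2 and GDF15 were each 2.59 lower on the first EV array of MDA-MB-231 than on the second.

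MDA-MB-231, the parental line, was given the same construct or vector, with 2 arrays each, and its response was set against that of LM24175 in the same fit. The 2 comparisons share no arrays. In 435 genes the responses differed (3.64%). Of these, 341 had also passed in LM24175, an overlap partly built in because the difference contains the LM24175 change. With the first RECK array of LM24175 and the first EV array of MDA-MB-231 left out 423 differed, 228 of them among the 435. Leaving out 1 LM24175 array gave 123 (first EV array), 139 (second EV array), 207 (first RECK array) and 936 (second RECK array). In MDA-MB-231 itself 33 genes passed, and 9 passed in both lines.

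Part of the cholesterol and fatty acid genes responded differently in the 2 lines. Of the 40 genes 16 (40.0%) had a lower response in LM24175, against 1.99% of all genes, and 0 a higher one, and the median change in MDA-MB-231 was 0.23. SCD read 10.74 and 11.52 with the vector and 12.12 and 12.20 with the construct in MDA-MB-231, above the vector, where LM24175 had been below it. The responses differed by -2.59 ± 0.42 log2 units (adjusted p = 0.00812), and by -1.61 without the first RECK array of LM24175 and the first EV array of MDA-MB-231 (adjusted p = 0.000436). FASN differed by -1.39 (adjusted p = 0.00063). DHCR7 and MSMO1 passed in both lines with opposite sign. DHCR7 rose by 0.52 in MDA-MB-231 (adjusted p = 0.0362), from 8.57 and 8.61 to 9.11 and 9.12, and MSMO1 by 0.77 (adjusted p = 0.0174), from 10.79 and 10.73 to 11.48 and 11.56. HOXB7 was read from 204779_s_at, and its other probe sets 204778_x_at and 216973_s_at differed by -0.04 and 0.02 in LM24175. HOXB7, KYNU and LRP8 also passed in both lines, lower in LM24175 and higher in MDA-MB-231. In LM24175 these 3 lost the call without the first RECK array or the second EV array, KYNU and LRP8 also without the first (adjusted p up to 0.289, 0.185 and 0.111).

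The 15 largest rises in LM24175 were chosen by a change that is part of the difference of responses, so a high count was built in. Of these 15, 14 differed from the response of MDA-MB-231, beside 3.64% of all genes. COL1A2 read 5.07 and 3.81 with the vector and 4.21 and 4.41 with the construct there, and the responses differed by 2.34 ± 0.41 (adjusted p = 0.0104). This call was lost without the first EV array of LM24175, where the difference was 2.11. CST6 read 5.69 and 5.60 against 5.15 and 4.66 in MDA-MB-231, without passing there (adjusted p = 0.086), and the responses differed by 2.23 ± 0.22 (adjusted p = 0.00134). The exception was MMP3, at 6.74 and 7.98 against 8.81 and 8.87 in MDA-MB-231 (difference of responses 0.12, adjusted p = 0.902). With the same 2 arrays left out MMP3 too differed, by 0.79 (adjusted p = 0.0151). MMP1 differed by 1.33 (adjusted p = 0.0062).

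A few genes responded alike in sign. CD96, an immunoglobulin family receptor, fell from 6.60 and 6.22 to 5.04 and 5.33 in LM24175 (adjusted p = 0.000432) and from 7.23 and 7.04 to 6.09 and 6.04 in MDA-MB-231 (adjusted p = 0.0174). SSX1, a cancer-testis antigen, rose from 3.75 and 4.05 to 5.26 and 5.03 in LM24175 (adjusted p = 0.00586, lost without the first EV or the first RECK array, up to 0.072) and from 4.75 and 5.46 to 6.74 and 6.72 in MDA-MB-231 (adjusted p = 0.0174). ENPP2 rose in both, by 1.66 and 0.85, and PTPRN2 by 0.53 and 0.93 (in LM24175 lost without the second RECK array or either EV array, up to 0.13). These 4 genes and the 5 of opposite sign are all that passed in both lines. The difference of responses passed for ENPP2 (0.81, adjusted p = 0.0317) and not for the other three.

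**Figure D5:**
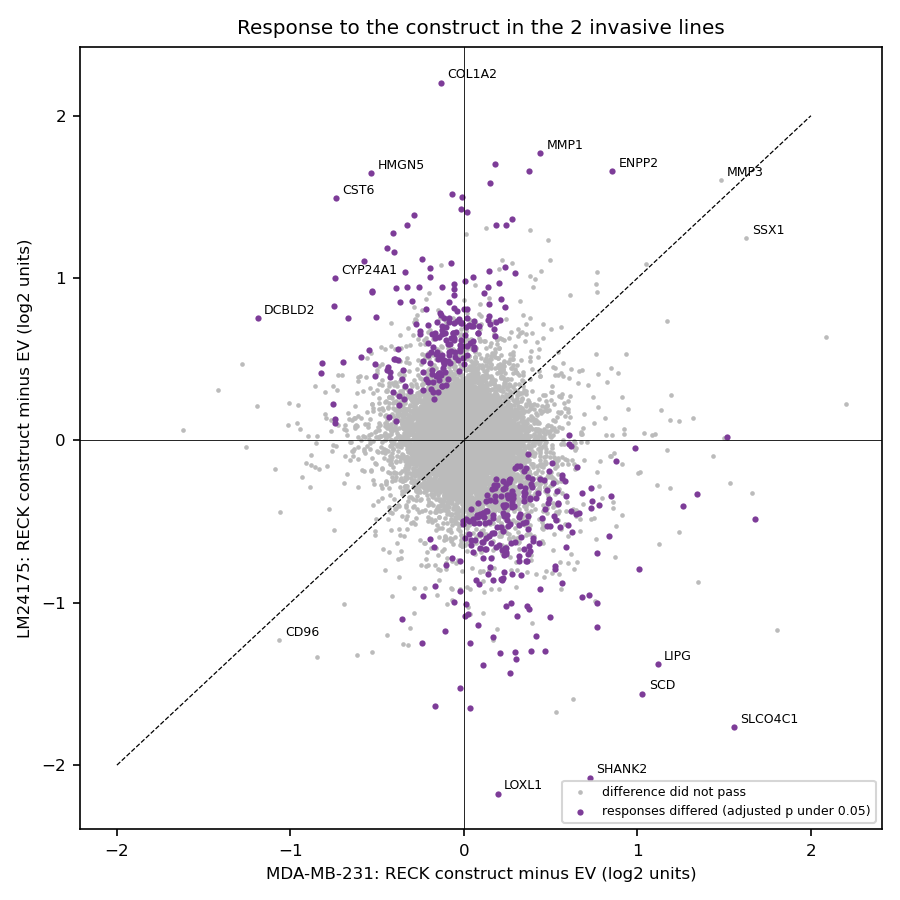
Response of every gene to the construct in MDA-MB-231 (across) and LM24175 (upward), each as the log2 mean of the RECK arrays minus that of the EV arrays, with the 435 genes whose responses differed in purple and a dashed line of equal response. COL1A2, HMGN5 and CST6 stand at the top near or left of 0, SLCO4C1, SCD and LIPG lie at the lower right, and MMP3 lies close to the dashed line.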

How the data were processed

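The authors deposited log2 levels of 22277 probe sets on 16 arrays. Per the submitters' processing notes Partek was the software, with its version, the summary of probes and the scaling not given in the sources used here. How well a probe set stood above background could not be read from the values. Nothing was rescaled. The 62 control probe sets were left out, and 19064 probe sets had 1 symbol in the platform annotation, 1043 several and 2164 were not listed there. Each of 11963 genes was read from its probe set with the highest mean over all arrays.

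All 16 arrays entered 1 fit of 8 group means in limma 3.58.1 under R 4.3.3 (lmFit, contrasts, eBayes), which left 8 residual degrees of freedom, to which eBayes added 3.72. The residual SD had a median of 0.129. Tests were 2-sided with Benjamini-Hochberg adjustment over all genes, and an adjusted p under 0.05 passed. A value after ± is the standard error of a difference with 2 arrays in each group, and the number of arrays limits the precision. Single probe sets were adjusted over all 19064. Only fits that include all other groups give a lone array a spread, taken to be like theirs. The procedure was checked on simulated data. Tables used pandas 2.3.3 and numpy 2.4.6 in Python 3.11.15, and plots used matplotlib 3.10.9.

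The comparison and the 40 gene lists were chosen with earlier results of these data known, and lists are described by counts and medians beside those of all genes. A fixed rule gave the genes to name: RECK, then among passing genes with separate arrays the 15 that rose most and the 15 that fell most, up to 5 passing members of a described list, 10 genes of the STAT3 and invasion question, the 5 largest differences from MDA-MB-231 in each direction, the 8 largest gaps between the RECK arrays in each direction, and markers. TIMP1, TIMP3, COL1A1, SREBF1, SREBF2, CIITA, LSS, EBP, HSD17B7, FADS2, DGAT1, HLA-DMB, RFXANK, PGK1, CD96, SSX1, PTPRN2, HOXB7, KYNU and LRP8 were named after their values were seen.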

Additional observations from a re-analysis of the deposited data

Results flagged for a closer look

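The response to the construct differed between LM24175 and MDA-MB-231 in 435 genes, by a test of the difference itself in limma. The 5 largest differences in each direction (LM24175 response minus MDA-MB-231 response, log2) are given here. SLCO4C1 differed by -3.32, SHANK2 by -2.81, SCD by -2.59, LIPG by -2.50 and LOXL1 by -2.37. Of these 5 genes, SHANK2 and SCD passed with any 1 LM24175 array left out, as did SLCO4C1. LIPG lost the call without the first EV array (-2.47), and LOXL1 without either EV array (-2.31 and -2.43) or the first RECK array (-2.13). In a fit of the 8 arrays of both invasive lines, SHANK2, CST6 and CYP24A1 passed among the 10 genes named here, and the other 7 did not. With the replicate number as a block within each line, LOXL1 and CYP24A1 lost the call.

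COL1A2 differed by 2.34, CST6 by 2.23, HMGN5 by 2.18, DCBLD2 by 1.94 and CYP24A1 by 1.74. DCBLD2, a membrane receptor, read 8.28 and 8.44 with the vector and 8.70 and 9.53 with the construct in LM24175, against 9.58 and 9.33, then 7.86 and 8.67, in MDA-MB-231. CYP24A1, which inactivates vitamin D, read 7.21 and 7.47, then 8.44 and 8.24, against 6.61 and 6.64, then 5.88 and 5.88. DCBLD2 lost the call without either EV array of LM24175 (1.86 and 2.02), COL1A2 without the first (2.11), and CYP24A1 without either EV array (1.61 and 1.87) or the first RECK array (1.65). With the first RECK array of LM24175 and the first EV array of MDA-MB-231 both left out, CYP24A1 lost the call (adjusted p = 0.138) and the other 9 passed.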

How the results depend on the processing

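The count of 802 changed genes lay between 779 and 989 under quantile normalization, median centring, the mean of probe sets, a filter on low levels, trend and robust eBayes, and with the first RECK array and the first EV array of MDA-MB-231 both left out. Centring each array on its median moved the split to 477 higher and 302 lower. Every probe set tested alone gave 948. The count fell to 343 with a 1.5-fold minimum, to 153 in a fit of the 4 LM24175 arrays and to 273 in one of the 8 arrays of both invasive lines, and lay between 276 and 841 with 1 array left out. The replicate block gave 432. The EV and RECK gaps within LM24175 correlated at -0.037, so the replicate numbers were not taken to pair its arrays.

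The 435 genes that differed between the lines became 671 with trend and robust eBayes, 21 in the fit of 8 arrays, 148 with the replicate block and 123 to 936 with 1 LM24175 array left out. Without the first RECK array, alone or together with the first EV array of MDA-MB-231, 5 genes that had not passed turned sign. With 1 array left out their differences ran from -0.52 to 0.28 for IL6, -0.93 to 0.13 for VEGFA, -0.69 to 0.10 for CXCL8, -0.71 to 0.0092 for PLAU and -0.74 to 0.019 for MMP2, the lower end without the second RECK array. COL1A1 turned to 0.041 as the mean of its probe sets, and CIITA ran from -0.12 to 0.037, above 0 without the first EV array or the second RECK array (0.022). No passing gene that is named turned sign under any of these alternatives, but for most alternatives this was fixed beforehand. In all 802 passing genes the arrays of the groups did not overlap, so leaving out 1 LM24175 array could not turn a sign. The fits of fewer lines, the replicate block and the other eBayes setting left the differences themselves unchanged. Many of the named genes lost the call. The cause was not tested, beyond the smaller number of arrays in some fits.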
